A study of Mus musculus with 6 samples.

Results

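The T cell receptor beta locus of CD8+ T cells was examined through its 53 annotated gene segments, which are the 35 Trbv, 2 Trbd, 14 Trbj and 2 Trbc genes among the 49315 genes of the deposited count table. The rule takes them by the start of their gene symbol and uses no measured value. In GRCm38 coordinates they lie on chromosome 6 between 40891229 and 41558452, a span of 667 kb. Of the 53 segments, 48 had a count in at least 1 library, and 41 passed the filter on low counts and were tested. These 41 are 23 Trbv, 2 Trbd, 14 Trbj and 2 Trbc genes, and the 12 that were not tested are all Trbv.

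The cells were sorted as total CD8+ T cells from the tumor-draining lymph nodes of wild-type female C57Bl6/J mice with B16F10 tumors, a transplantable melanoma. The sample labels write the tumor line as B26F10. All mice were treated once, at a tumor size of 50 to 100 mm3, and killed on day 5. The monotherapy group (n = 3 mice) received HCW9218 subcutaneously, which the series title describes as a TGF-βRII and IL-15 complex, and the combination group (n = 3 mice) received HCW9218 with anti-PD1 given intraperitoneally. The labels used here give no age, and all mice carried a tumor and received HCW9218, so no value here is relative to untreated mice. Each library is bulk RNA from 1 sort, so fewer cells of a type and less RNA per cell cannot be told apart.

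Totals ran from 34568074 to 40101346 counts per library. The CD8 T cell markers Cd8a, Cd8b1, Cd3d and Cd3e summed to 3397 to 4137 CPM, which puts counts on a common library size, in monotherapy and 3248 to 4069 CPM in the combination. The CD4 T cell markers summed to 4.10 to 12.0 CPM over the 6 libraries, and γδ T cell markers to 22.3 to 26.9 CPM. The melanocyte genes Dct and Tyrp1 had 301 and 281 counts in combination library 2 and 377 and 366 counts in combination library 3, against 0 or 1 count in each of the other 4 libraries. Of the other melanocyte markers used, Tyr had 39 and 67 counts and Mlana 21 and 42 in combination libraries 2 and 3. In the other libraries Tyr had 0 or 1 count and Mlana 0, except 6 in monotherapy library 3. Pmel had 822 to 1153 counts over all libraries, and its groups overlapped. The part of these transcripts in the results below was not tested. Log2 fold changes without combination libraries 2 and 3 are given below.

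A T cell builds its beta chain gene by cutting out DNA, so that a D segment is joined to a J segment and a V segment is then joined to the DJ unit. The messenger RNA carries the joined V-D-J exon spliced to a constant gene. Segments of the Trbj1 cluster lie ahead of Trbc1 and are spliced mainly to it, while those of the Trbj2 cluster lie between the constant genes and are spliced to Trbc2. A J segment that was not used but lies downstream of the joined one remains in the rearranged gene and in its unspliced RNA. In a population of many clones, each segment's share of the reads of its class sums over all clones.

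The short D and J segments are printed because they are where the count of a read is hardest to read as the use of a segment. They were taken from GENCODE M21 transcripts on GRCm38, 5′ to 3′ on the plus strand. In both D segments the capitals mark the longest run of G, which the reading frames of this segment translate largely as glycine. Trbd1 spans chr6:41533201-41533212 and Trbd2 spans chr6:41542163-41542176.
Trbd1: gggacaGGGGGc
Trbd2: gggactGGGGGGGc

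For the J segments below, capitals mark the letters TTNGG followed after 4 further bases by GG, searched on the transcript strand only. These letters can encode the phenylalanine and glycines that J regions are known for. They occurred in 11 of 14 Trbj segments and in 67 of the 94 immunoglobulin and T cell receptor J segments of the annotation (71.3%). The 3 Trbj segments without them were Trbj1-6, Trbj1-7 and Trbj2-6, and they are shown whole beside 5 that hold them. The Trbj1 cluster spans chr6:41533864-41535687 and the Trbj2 cluster chr6:41542754-41543856.
Trbj1-3: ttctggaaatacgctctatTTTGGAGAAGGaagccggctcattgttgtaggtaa
Trbj1-4: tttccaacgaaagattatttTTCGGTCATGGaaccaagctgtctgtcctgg
Trbj1-6: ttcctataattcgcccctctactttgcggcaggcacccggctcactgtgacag
Trbj1-7: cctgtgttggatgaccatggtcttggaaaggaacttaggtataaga
Trbj2-1: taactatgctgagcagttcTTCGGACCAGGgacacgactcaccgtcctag
Trbj2-3: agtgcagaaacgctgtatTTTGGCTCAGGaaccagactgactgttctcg
Trbj2-6: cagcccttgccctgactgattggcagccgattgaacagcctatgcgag
Trbj2-7: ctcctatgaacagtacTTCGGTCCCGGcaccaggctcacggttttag

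The 3′ ends of the V transcripts show where V meets the DJ unit, and the last 30 bases are printed for the 3 most abundant Trbv genes, for the 2 on which annotations differ, and for Trbv20. Capitals mark TGTGC, searched on the transcript strand, which holds the codon of the cysteine at the start of the CDR3 loop, the receptor's most variable part. These letters lay in the last 30 bases of 19 of 22 Trbv genes, 7 of 13 Trbv pseudogenes and 76.4% of 178 T cell receptor V segments of all chains in the annotation. Trbv20 is among those without them.
Trbv13-2: catcagtgtacttcTGTGCcagcggtgatg
Trbv16: agcggtgtatcttTGTGCaagcagcttaga
Trbv12-2: tctgccgtgtacttcTGTGCcagctctctc
Trbv29: atctgtgtacttcTGTGCtagcagtttatc
Trbv24: agcactgtagctcTGTGCcagcagtctgta
Trbv20: cagaggcttatatctctgtggtgctaggga

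Among the V segments, which carry the part of the receptor that contacts the MHC molecule and sets many antibody-defined Vβ types, Trbv13-2 was the most abundant in 6 of 6 libraries. Its share of Trbv counts was 11.1, 11.6 and 12.7% in monotherapy libraries 1, 2 and 3 and 10.4, 10.8 and 13.1% in combination libraries 1, 2 and 3. The groups overlapped, and library 3 was the highest of each group. Trbv16 ranked second in 6 of 6 libraries, with 10.3 ± 0.143% in monotherapy and 9.95 ± 0.265% in the combination (SD, n = 3 each). Trbv12-2 was the next in 6 of 6, with 9.42 ± 0.152% and 9.11 ± 0.194% (SD, n = 3 each).

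The next V genes by mean share over the 6 libraries were Trbv14 (7.97%), Trbv29 (7.36%), Trbv12-1 (7.35%) and Trbv3 (5.96%). They were followed by Trbv13-1 (5.63%), Trbv13-3 (5.36%) and Trbv15 (3.88%). These means are shares of counts, not of length-corrected levels. Per kilobase of exon, Trbv13-2 stood at 212 ± 27.6 CPM per kb in monotherapy (SD, n = 3), ahead of Trbv16 at 159 ± 30.3 and Trbv12-2 at 151 ± 29.9. The order of these 3 group means was thus the same per length, and Trbv16 was above Trbv12-2 in 6 of 6 libraries.

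**Figure D1:**
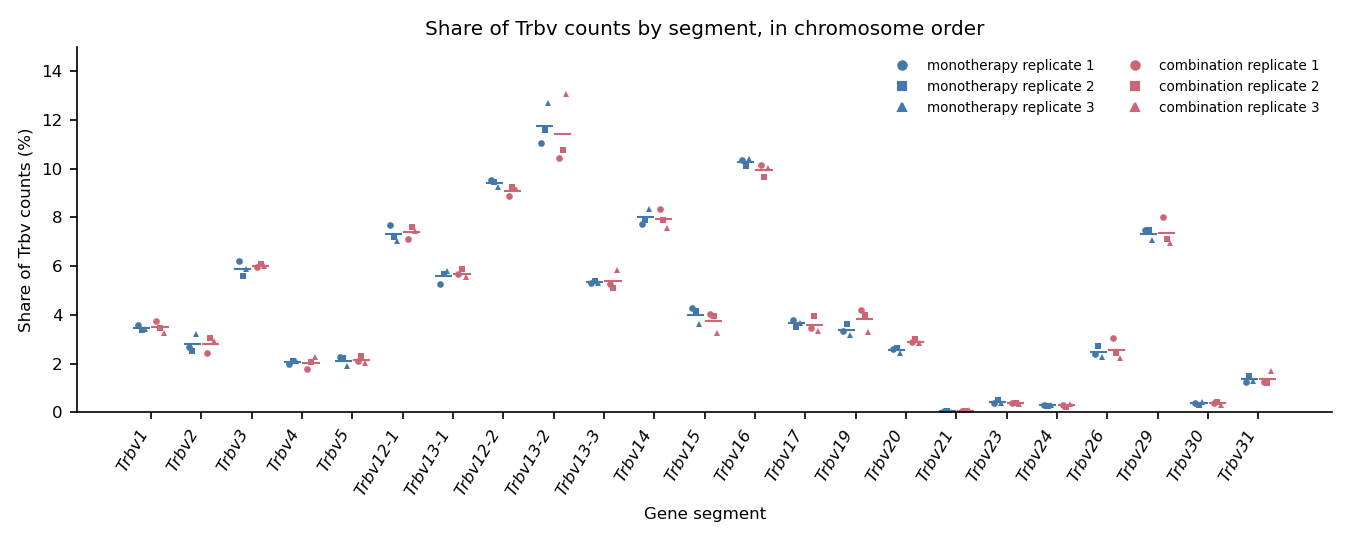
Share of all Trbv counts (y axis, percent) of each tested Trbv segment in chromosome order (x axis). Each point is 1 library, blue for monotherapy and red for combination, and short lines are group means. Trbv13-2, Trbv16 and Trbv12-2 are highest in both groups, and Trbv21 lies near 0.

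Much of the V signal came from a block of neighbouring segments. The block was picked after its shares were seen and holds the 4 largest, so its high total is a description and no separate result. It runs from Trbv12-1 to Trbv16 at chr6:41113550-41152230 (38.7 kb) and has 9 of the 35 Trbv segments. These held 61.8 ± 0.667% of Trbv counts in monotherapy and 60.7 ± 1.13% in the combination (SD, n = 3 each). Over the 6 libraries that share ran from 59.9 to 62.5%. The block also holds the pseudogene Trbv12-3, while Trbv29 and Trbv3, which rank 5 and 7, lie outside it. Trbv1, the segment farthest from the D and J segments, held 3.48%, and Trbv31, which lies behind Trbc2 on the opposite strand, held 1.36%. Trbv30, the last V segment ahead of the D and J segments, held 0.368%.

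Annotated V pseudogenes contributed little. Of 13 Trbv pseudogenes, 8 had a count in any library, and 5 were at 0 in all 6 libraries, where a count of 0 allows up to 3 counts per library. That limit does not hold for 1 of the 5, Trbv8, all of whose 50-base stretches also lie in the gene AC153851.1. Trbv24 was the most abundant, with 78, 59 and 70 counts in monotherapy and 75, 52 and 54 in the combination, or 0.292% of Trbv counts. The annotations disagree on the Trbv genes whose ends are printed above: GENCODE M21 lists Trbv24 as a pseudogene and Trbv29 as a gene, while RefSeq lists Trbv24 as a V segment and Trbv29 as a pseudogene. Trbv29 ranked 5 among all V segments, with 7.47, 7.50 and 7.06% in monotherapy and 8.03, 7.13 and 6.96% in the combination, and the groups overlapped.

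The V profile of each mouse was close to that of every other mouse. As a distance, the percentage points of Trbv counts that would have to change segment to turn 1 library's profile into another's were taken. They ran from 2.41 to 3.59 points within monotherapy, from 3.39 to 5.47 within the combination and from 2.58 to 4.47 between the groups. Libraries of different groups were therefore no farther apart than the farthest libraries of the combination group. Across the 35 segments, the mean shares of both groups had a Pearson r of 0.999, given as a description, since the segments share libraries and length.

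Between groups, no V segment differed in mean share by more than 0.458 percentage points. That difference belonged to Trbv19, with 3.35, 3.64 and 3.17% in monotherapy and 4.22, 4.01 and 3.31% in the combination. The groups overlapped in Trbv19. Trbv20 was the only V segment whose groups did not overlap in share, at 2.61, 2.64 and 2.42% against 2.88, 3.00 and 2.84%. This is 1 of 23 tested Trbv genes, and 14.7% of all tested genes had groups that did not overlap in CPM, in either direction, so the count is no result about the V genes. The median spread of a Trbv share within groups was 1.82 times its counting error, and it was largest for Trbv13-2 at 5.37 times. At these depths the widest 95% Wilson interval of a Trbv share was ± 0.535 points, which covers counting error only.

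Diversity of V use was summarised as the Shannon entropy of the Trbv shares, in bits, which is higher when counts are spread more evenly. It was 4.09, 4.09 and 4.07 bits in monotherapy and 4.11, 4.12 and 4.08 bits in the combination, and the groups overlapped (exact two-sided permutation test, p = 0.3). The largest single share gave p = 0.7 in the same exact test. With 3 mice against 3 the smallest p these tests can give is 0.1.

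In the test across all genes, 0 of the 41 tested segments were called higher or lower with the combination, beside 1.08% of all tested genes. At that share a count of 0 among 41 says little about the segments. The test was the edgeR quasi-likelihood test, with Benjamini-Hochberg adjusted p over 15142 genes and a threshold of 0.05. At an unadjusted p under 0.05 there was 1 segment, Trbd1, beside 8% of all tested genes. DESeq2 and limma-voom also called 0 segments, beside 1.75 and 0.911% of all genes they tested. The median log2 fold change was -0.06 over the 23 tested Trbv genes, of which 19 were below 0, and -0.15 over the 14 Trbj genes, of which 13 were below 0. Over all tested genes it was -0.00060.

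Single V genes moved by less than their errors. The 4 highest log2 fold changes were those of Trbv21 (0.29 ± 0.49 SE), Trbv19 (0.15 ± 0.28), Trbv20 (0.12 ± 0.24) and Trbv26 (0.04 ± 0.30), with edgeR adjusted p between 0.969 and 0.990. Trbv21 had only 7 to 14 counts per library. The 4 lowest were those of Trbv23 (-0.21 ± 0.32), Trbv15 (-0.15 ± 0.29), Trbv13-2 (-0.14 ± 0.17) and Trbv12-2 (-0.12 ± 0.22). Their edgeR adjusted p lay between 0.951 and 0.973. Scaled to the Trbv total, so that a change is a change in share, 0 segments were called and 0.0396% of all genes were. Scaled to the Trbj total, 0 segments and 1.21% of all genes were called.

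**Figure D2:**
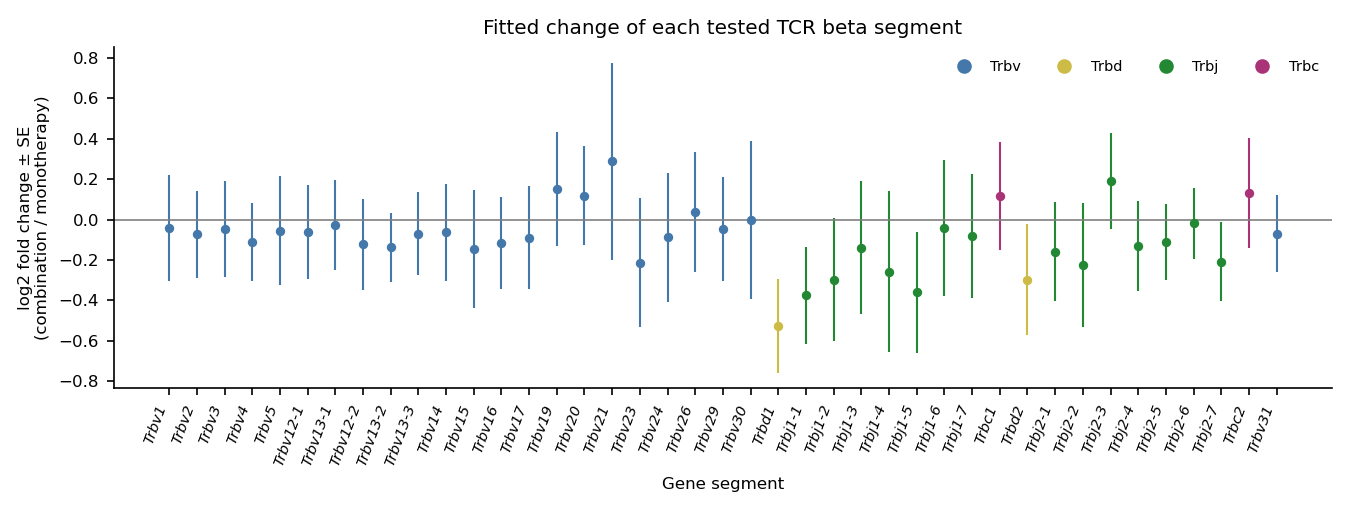
Fitted log2 fold change of the combination over monotherapy (y axis) for each of the 41 tested segments in chromosome order (x axis), with bars of ± 1 SE from the edgeR fit. Trbv genes lie near 0, most Trbj and both Trbd genes lie below 0, and both Trbc genes lie above 0, with adjusted p above 0.05 for all 41.

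The direction of the Trbv genes as a class rested on single libraries. Without combination library 3, 0 of 23 tested Trbv genes were below 0 in log2 fold change, and without monotherapy library 1 2 of 23 were. Without combination library 1, 22 of 23 were below 0, with a median of -0.23. The Trbj genes also depended on single libraries. Below 0 were 8 of 14 without combination library 1 (median -0.021) and 8 of 14 without monotherapy library 1 (median -0.0025). With any other library left out, 10 to 13 of 14 were below 0. Summed over all 35 Trbv genes, the level was 747, 557 and 543 CPM in monotherapy and 740, 627 and 395 CPM in the combination (exact two-sided permutation test, p = 0.9). Combination library 3 was the lowest of all 6, and monotherapy library 1 and combination library 1 were the highest.

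The constant genes, which encode the membrane-proximal part shared by all beta chains, followed the V genes across libraries but spread further. Trbc1 and Trbc2 together stood at 1384, 1058 and 1056 CPM in monotherapy and 1723, 1310.4 and 783 CPM in the combination (exact two-sided permutation test, p = 0.8). Combination library 1 was the highest of the 6 and combination library 3 the lowest. Trbc1 had a log2 fold change of 0.12 ± 0.27 (SE) and Trbc2 of 0.13 ± 0.27, each with an edgeR adjusted p of 0.97. The order of the 6 libraries by summed Trbc level was the same as their order by summed ribosomal protein gene level, which ran from 68446 CPM in combination library 3 to 193691 CPM in combination library 1. The part of this in the Trbc level was not tested.

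Trbc2 held 66.8, 66.6 and 68.4% of Trbc counts in monotherapy and 67.1, 67.9 and 67.1% in the combination (exact two-sided permutation test, p = 0.8), a range under 2 points over all libraries. How the counts split between the 2 genes is uncertain, because 40.5% of the 50-base stretches of Trbc1 and 44.0% of those of Trbc2 are identical between them. Trbc1 lies at chr6:41538218-41539881 and Trbc2 at chr6:41546730-41548352, and their first exons, of 375 bases each, differ at 1 base. A 60-base stretch around that base, counted from base 230 of the first exon, shows the near-identity, with the differing base in capitals.
Trbc1: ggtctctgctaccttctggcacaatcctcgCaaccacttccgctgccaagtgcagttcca
Trbc2: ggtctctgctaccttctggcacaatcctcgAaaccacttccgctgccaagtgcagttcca

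The D segments were the only class in which the groups did not overlap in CPM. Trbd1 stood at 8.43, 7.36 and 7.40 CPM in monotherapy and 7.01, 5.35 and 3.78 CPM in the combination. Trbd2 stood at 1.98, 1.75 and 1.59 CPM against 1.37, 1.58 and 1.37 CPM. All 3 combination libraries were below all 3 monotherapy libraries for 2 of 2 Trbd genes, where 7.54% of all tested genes had that pattern. The same was so for 0 of 23 Trbv, 0 of 14 Trbj and 0 of 2 Trbc genes. For Trbd2 the groups barely parted, at 1.591 CPM (66 counts) in monotherapy library 3 and 1.581 CPM (60 counts) in combination library 2. With 2 genes, 1 of them parted so narrowly, the count is no result about the class. The log2 fold change of Trbd1 was -0.52 ± 0.23 (SE), with an unadjusted p of 0.049 and an edgeR adjusted p of 0.62, and that of Trbd2 was -0.30 ± 0.27 with an adjusted p of 0.93. These values rest on 146 to 307 counts per library for Trbd1 and 45 to 71 for Trbd2, and a D segment is shorter than a read, so each such count is a read that covers mostly other sequence.

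**Figure D3:**
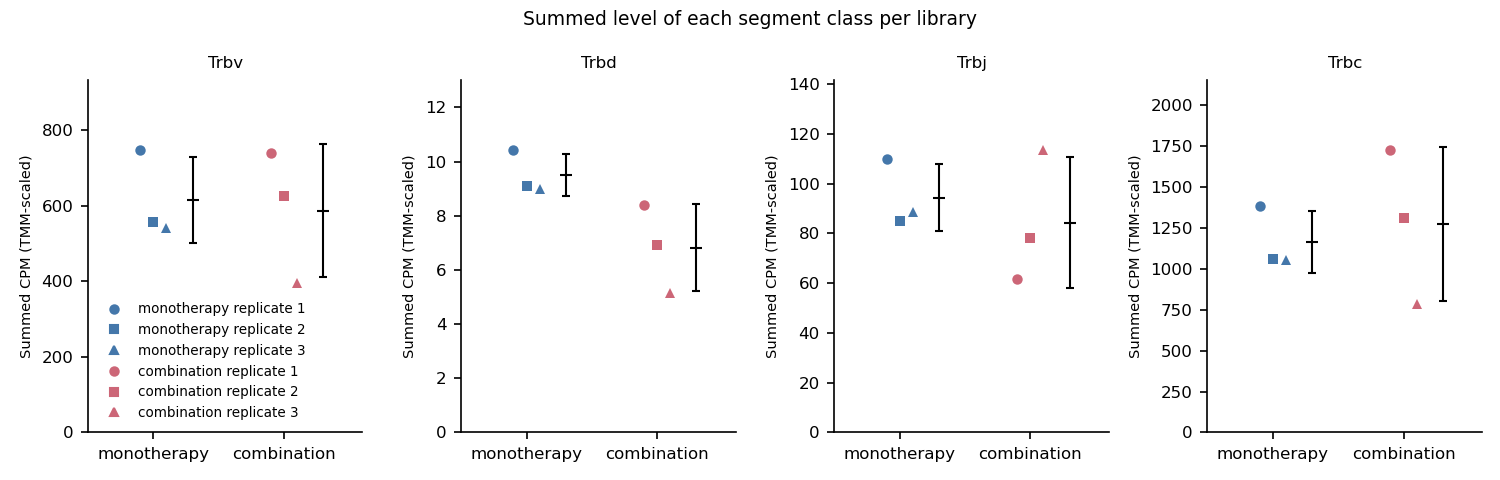
Summed level of the Trbv, Trbd, Trbj and Trbc genes in each library (y axes, TMM-scaled CPM, starting at 0), with points for libraries and black bars for the mean ± SD of each group (n = 3). Trbv and Trbc are lowest in combination library 3 while Trbj is highest there, and the groups do not overlap for Trbd.

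The J segments behaved unlike the V and C genes across libraries. Summed Trbj stood at 110.0, 84.8 and 88.4 CPM in monotherapy and 61.5, 78.2 and 113 CPM in the combination, and the groups overlapped (exact two-sided permutation test, p = 0.6). Combination library 3 was the highest of the 6 and combination library 1 the lowest, the reverse of their places for Trbc. Malat1, a nuclear noncoding RNA, was also lowest in combination library 1, at 655 CPM, and its highest level was 1593 CPM in monotherapy library 3. Its part in the Trbj level was not tested.

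The largest share of Trbj counts, as a mean over all 6 libraries, belonged to Trbj2-6, which GENCODE lists as a pseudogene and which lacks the J letters above. It held 8.88, 11.8 and 10.7% in monotherapy and 13.1, 11.6 and 10.3% in the combination, a mean of 11.1%. It was the highest J segment in 3 of 6 libraries, monotherapy 2 and combination 1 and 2, and by monotherapy means it came after Trbj2-7 (11.1%) and Trbj1-3 (10.7%), at 10.5%. Next over all libraries came Trbj2-7 (10.9%), Trbj1-3 (10.6%), Trbj1-4 (9.05%) and Trbj1-5 (9.03%). The other segments without the J letters, Trbj1-6 and Trbj1-7, held 8.03 and 6.08%. The 3 segments without the letters thus took counts at the level of the other J segments. These counts do not tell J segments joined to a V segment from J segments that are not.

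**Figure D4:**
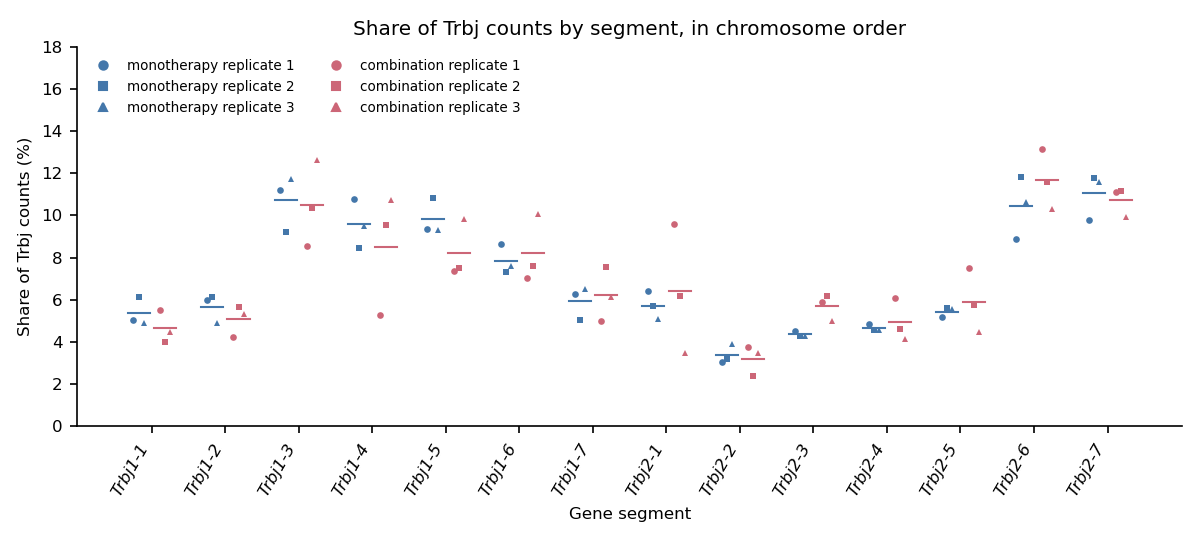
Share of all Trbj counts (y axis, percent) of each of the 14 Trbj segments in chromosome order (x axis). Points are libraries, blue for monotherapy and red for combination, and short lines are group means. The combination libraries are more spread than the monotherapy libraries in most segments, for example in Trbj1-4 and Trbj2-1.

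J profiles were farther apart than V profiles, on fewer counts, 2025 to 4379 per library for Trbj against 15265 to 26841 for Trbv. The same distance ran from 5.55 to 8.13 points within monotherapy, from 9.88 to 17.3 within the combination and from 5.81 to 14.8 between the groups. Combination library 1 was at least 10.8 points from every other library, while combination library 3 was 5.81 and 6.31 points from monotherapy libraries 1 and 3. Trbj2-1 held 6.40, 5.69 and 5.07% in monotherapy and 9.58, 6.16 and 3.47% in the combination, and Trbj1-4 held 10.8, 8.44 and 9.49% against 5.28, 9.53 and 10.7%. The median spread of a Trbj share within groups was 2.40 times its counting error, and the widest 95% Wilson interval was ± 1.47 points.

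Trbj2-3, named here after its values were seen, was the only J segment whose groups did not overlap in share. It held 4.53, 4.28 and 4.28% in monotherapy and 5.88, 6.16 and 5.00% in the combination. Its CPM values did overlap, and its log2 fold change was 0.19 ± 0.24 (SE) with an edgeR adjusted p of 0.95. It is 1 of 14 Trbj genes, again beside the 14.7% of all tested genes without overlap in CPM. The entropy of the Trbj shares gave p = 0.9 in the exact two-sided permutation test.

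Summed by cluster, Trbj2 held 42.7, 46.9 and 45.6% of Trbj counts in monotherapy and 57.0, 47.8 and 40.8% in the combination (exact two-sided permutation test, p = 0.6). Combination library 1 was the highest and combination library 3 the lowest. In all 6 libraries the Trbj2 share was below the Trbc2 share. Summed Trbj1 lay outside the monotherapy range on both sides, from 26.4 CPM in combination library 1 to 67.1 CPM in combination library 3, against 45.0 to 63.1 CPM in monotherapy. Summed Trbj2 ran from 35.1 to 46.2 CPM in the combination and from 39.8 to 46.9 CPM in monotherapy.

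Leaving out combination libraries 2 and 3, the 2 with Dct and Tyrp1 counts, was tried after the data were seen, and it gave calls. The remaining combination library 1 was then assumed to vary like the monotherapy libraries. Against monotherapy 4 segments were lower by the edgeR test, beside 3.77% of all tested genes called lower. They were Trbj1-2 (log2 fold change -1.04 ± 0.29 SE, adjusted p = 0.0497), Trbj1-3 (-0.96 ± 0.26, 0.0440), Trbj1-4 (-1.50 ± 0.30, 0.0142) and Trbj1-5 (-1.03 ± 0.22, 0.0180). Without combination library 3 alone, 0 segments were called, beside 1.8% of all genes, and the smallest edgeR adjusted p was 0.060.

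V and J counts were also set against constant-gene counts within each library, a comparison added after the data were seen. Trbv counts per 100 Trbc counts were 54.0, 52.6 and 51.4 in monotherapy and 42.9, 47.8 and 50.4 in the combination. All 3 combination libraries were below all 3 monotherapy libraries, and the exact two-sided permutation test gave p = 0.1, the smallest it can give. The difference of group means was -5.59 counts per 100, and it was -3.53 without combination library 1. Trbj counts per 100 Trbc counts were 7.95, 8.01 and 8.37 in monotherapy and 3.57, 5.97 and 14.5 in the combination, with a monotherapy range under 1 and a combination range that held it entirely (exact p = 1.0).

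The alpha chain, which pairs with beta and is counted from other genes, gave the same order of groups for the V ratio and not for the J ratio. Trav counts per 100 Trac counts were 37.9, 38.7 and 37.4 in monotherapy and 29.9, 34.6 and 35.0 in the combination, again with no overlap (exact p = 0.1). Traj counts per 100 Trac counts were 7.76, 10.1 and 13.7 in monotherapy and 5.11, 10.8 and 25.7 in the combination (exact p = 0.8). Combination library 1 was the lowest and combination library 3 the highest in J counts for alpha and for beta. The same libraries also gave the ends of the ribosomal protein gene range above, and the part of that difference in these ratios was not tested.

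**Figure D5:**
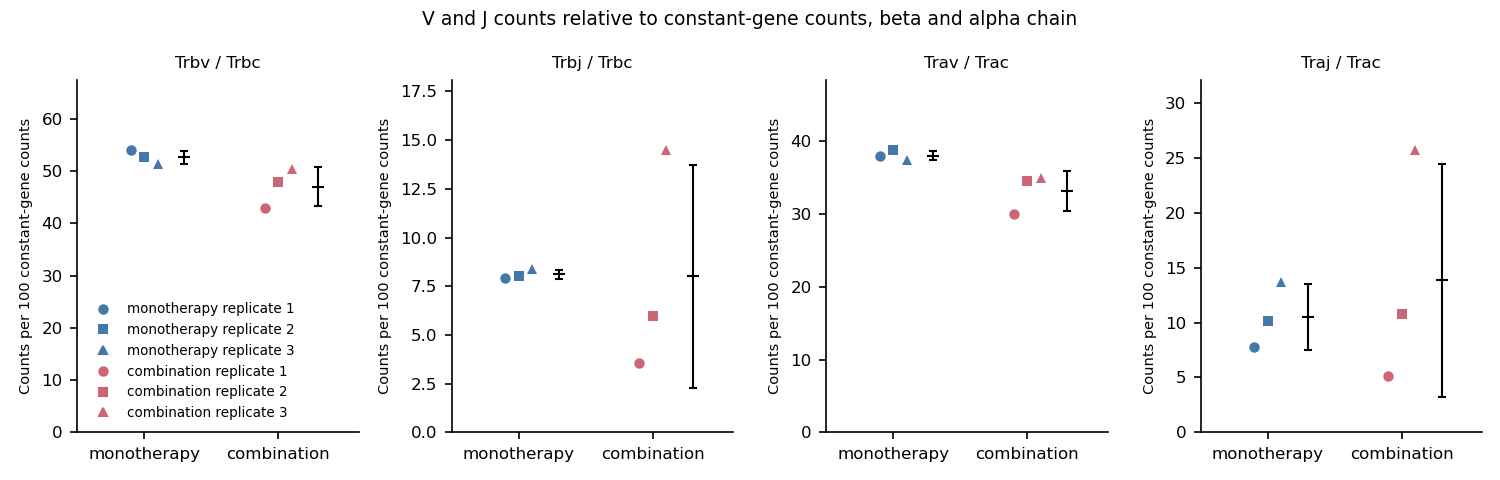
Counts of V and J segments per 100 constant-gene counts in each library (y axes, starting at 0) for the beta chain (left pair) and the alpha chain (right pair), with black bars for the mean ± SD (n = 3). The V ratios of the combination lie below those of monotherapy, and the J ratios of the combination spread to both sides of monotherapy.

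The other genes of the receptor are given for their levels, since with 1.08% of all genes called a count of 0 says nothing about lists this short. Of the CD3 and receptor genes Cd3e, Cd3d, Cd3g, Cd247 and Trac, 5 of 5 were tested and 0 were called, with a median log2 fold change of -0.01. Of 13 genes of V(D)J joining and the pre-T cell receptor, 10 were tested and 0 were called. At an unadjusted edgeR p under 0.05 there was 1, Lig4, beside 8% of all tested genes. Lig4 stood at 10.7, 12.1 and 10.3 CPM in monotherapy and 7.23, 8.72 and 7.53 CPM in the combination. Its groups did not overlap, a pattern that 7.54% of all tested genes had in this direction. Its log2 fold change was -0.49 ± 0.16 (SE), with an edgeR unadjusted p of 0.012 and an adjusted p of 0.33. Rag2, a subunit of the recombinase, and Ptcra, the invariant chain of the pre-T cell receptor, had 0 counts in every library, and Rag1 had 1 count in all. Dntt, which adds bases at the joints, stood at 12.1, 9.37 and 8.75 CPM in monotherapy and 11.0, 11.6 and 8.13 CPM in the combination, and the groups overlapped.

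The Trb locus also holds genes that are not segments, among them trypsinogens. Of 28 such genes between the outermost Trbv genes, 21 had no count in any library, 2 were tested and 0 were called. The noncoding gene 5830405F06Rik had 177 to 254 counts per library and overlaps Trbv4 and Trbv5. It shares 72.1% of the 50-base stretches of Trbv4 and 77.4% of those of Trbv5, so the level of these V genes is uncertain. Trbv4 held 2.05% and Trbv5 2.14% of Trbv counts. Trbv12-2 shares 1.19% of its stretches with another gene and Trbv13-2 shares 0.344%.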

How the data were processed

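Bulk RNA sequencing of sorted CD8+ T cells from 6 mice was analysed. Trizol RNA was enriched for poly(A) mRNA and made into libraries with the NEBNext Ultra II kit, per the labels' protocols. Per the submitters' processing notes, the authors ran STAR 2.5.2b, Subread 1.5.2 with featureCounts, and DESeq2. How strand and reads matching several genes were handled is not given in the sources used. The counts that the authors deposited are unnormalized whole reads for each gene. In the deposited table, 6 further columns belong to no sample and were left out. All 53 segments had the coordinates of GENCODE M21 (GRCm38). Rows without a gene symbol held 0.00727% of counts.

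Computed here: edgeR 4.0.16 (R 4.3.3) with filterByExpr by group, TMM scaling, glmQLFit and glmQLFTest without covariates over all 15142 genes kept, and Benjamini-Hochberg adjustment over them, with calls at an adjusted p under 0.05. CPM is scaled by TMM. A share is a segment's count over the count of its class in that library. Exact permutation tests, two-sided, compared values per library. P-values of the exact tests rest only on the spread between these libraries, 1 per mouse. That spread holds differences between mice, sorting, library preparation and counting error together. Those of edgeR model counting error and also draw on spread estimated across all tested genes. Intervals of shares are 95% Wilson intervals. Identity between genes was measured as shared stretches of 50 bases of annotated transcripts. The edgeR script was tested on simulated data. Alternatives were DESeq2 1.42.0, limma-voom 3.58.1, other scalings and filters, the replicate block and each library left out.

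The segments and lists were chosen with earlier results of these data known. The block from Trbv12-1 to Trbv16 was picked after its shares were seen. Named segments are all Trbc and Trbd, the 10 Trbv and 5 Trbj with the largest mean share, the 4 Trbv with the largest rise and fall, those with the largest and smallest within-group range of share (Trbv13-2 and Trbv21), and the most abundant pseudogene; Trbv1, Trbv4, Trbv5, Trbv30, Trbv31, Trbj1-2, Trbj1-6, Trbj1-7, Trbj2-1 and Trbj2-3 were named after their values were seen.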

Additional observations from a re-analysis of the deposited data

How the results depend on the processing

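The count of 0 called segments was the same under DESeq2, limma-voom, other scalings and count filters, the replicate block and each of the 6 libraries left out. The fit without combination libraries 2 and 3 was added after the data were seen. It leaves 1 combination library, so only its effect sizes are given. It moved the median log2 fold change of the 14 Trbj genes from -0.15 to -0.59. The Trbv median moved from -0.06 over 23 genes to 0.26 over 24, with 0 of 24 below 0. The median of the 2 Trbc genes moved from 0.12 to 0.56 and that of the 2 Trbd genes from -0.41 to -0.26. That alternative also turned the sign of the combination minus monotherapy difference in Trbj entropy (to 0.0102 bits), Trbc2 share (to -0.155 points), summed Trbv level (to 124 CPM) and Traj counts per 100 Trac counts (to -5.40). With each library left out in turn, differences without a change of sign were 0.00863 to 0.0267 bits for Trbv entropy, -7.28 to -3.53 for Trbv per 100 Trbc and -5.77 to -3.25 for Trav per 100 Trac. The sign did change for the largest Trbv share (-1.18 to 0.132 points, positive without monotherapy 3 or combination 1), Trbj entropy (-0.0203 to 0.00378 bits, positive without combination 3) and Trbj2 share (-0.763 to 7.37 points, negative without combination 1). It also changed for Trbc2 share (-0.178 to 0.695 points, negative without monotherapy 1, monotherapy 2 or combination 2), summed Trbv (-104 to 67.9 CPM, positive without monotherapy 1 or combination 3), summed Trbc (-119 to 351 CPM, negative without combination 1) and summed Trbj (-24.5 to 1.40 CPM, positive without combination 1). The same held for Trbj per 100 Trbc (-3.34 to 2.11, positive without monotherapy 3, combination 1 or combination 2) and Traj per 100 Trac (-2.58 to 7.69, negative without combination 3). Of the 25 named segments, log2 fold changes under one or another left-out library had both signs for Trbc1 (-0.16 to 0.37), Trbc2 (-0.13 to 0.38), Trbj1-3 (-0.61 to 0.16), Trbj1-4 (-0.76 to 0.13) and Trbj2-6 (-0.18 to 0.11). Among Trbv genes this was so for Trbv12-1 (-0.21 to 0.15), Trbv12-2 (-0.28 to 0.092), Trbv13-1 (-0.20 to 0.21), Trbv13-2 (-0.26 to 0.0069), Trbv13-3 (-0.24 to 0.11), Trbv14 (-0.29 to 0.18) and Trbv15 (-0.39 to 0.14), and for Trbv16 (-0.32 to 0.10), Trbv19 (-0.11 to 0.44), Trbv20 (-0.053 to 0.35), Trbv23 (-0.40 to 0.030), Trbv24 (-0.35 to 0.085), Trbv26 (-0.31 to 0.32), Trbv29 (-0.31 to 0.20) and Trbv3 (-0.22 to 0.17). Scaled to the Trbv total, log2 fold changes turned to 0.018 for Trbv12-1, 0.028 for Trbv13-1, 0.015 for Trbv13-3, 0.012 for Trbv24, 0.0066 for Trbv29 and 0.030 for Trbv3, and scaled to the Trbj total that of Trbj2-6 turned to 0.16. These scalings move the median of all tested genes to 0.13 and 0.23. That of Trbv26 turned to -0.018 with library totals, -0.057 with limma-voom and -0.043 with the replicate block. Leaving aside the fit without combination libraries 2 and 3, no named segment passed the threshold, and the smallest adjusted p was 0.060. Same-numbered libraries of the groups had correlations of 0.145, -0.055 and 0.279 in their deviations from the group means over 15142 genes. Libraries with different numbers had -0.229 to 0.119, so 0.145 and 0.279 lay above all of them. These correlations do not settle whether the numbers mark pairs, and the main fit did not take them as pairs. As a block the numbers left 0 segments called, beside 1.9% of all tested genes. Paired exact tests gave p = 0.25 for Trbv entropy, where 0.25 is the smallest that 3 pairs can give. The causes of these changes were not tested. Depth limits Trbv21, the Trbv pseudogenes and Trbd2, with under 100 counts in each library.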

Other observations

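Marker genes of other lymphoid and myeloid cells were low in all libraries. NK cell and innate lymphoid markers (Ncr1, Klrb1c, Klra8 and Kit) summed to 4.51, 4.29 and 4.60 CPM in monotherapy and 6.01, 7.01 and 4.63 CPM in the combination; the groups did not overlap, as in 14.7% of all tested genes, and 0 of the 4 genes were called by edgeR, beside 1.08% of all genes. The log2 fold changes had both signs, 1.51 ± 0.41 (SE) for Klra8 and 0.54 ± 0.30 for Klrb1c against -0.16 ± 0.71 for Ncr1 and -0.31 ± 0.34 for Kit. B cell markers summed to 34.2 to 48.7 CPM in monotherapy and 23.8 to 52.6 CPM in the combination. The sum of 5 myeloid markers was 10.3 to 21.8 CPM against 13.4 to 16.3 CPM. Cd4, the coreceptor of helper T cells, stood at 1.67, 3.00 and 3.06 CPM in monotherapy and 0.425, 2.11 and 1.24 CPM in the combination, with a log2 fold change of -1.02 ± 0.50 (SE) and an edgeR adjusted p of 0.68.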
